A study of Mus musculus with 4 samples.

Results

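Histone genes were compared between Lgr5-GFPhigh intestinal cells of 2 Lgr5-CREPTWT and 2 Lgr5-CREPTKO mice. They were chosen by gene symbol, and 78 of the 18436 genes in the deposited table matched. Of these, 67 are replication-dependent histone genes, with symbols of the form Hist1h to Hist4h, and 11 are histone variant genes, with symbols that begin with H1f, H2af or H3f. The levels are FPKM, which correct fragment numbers for transcript length and library size, so a value is relative to all other transcripts of that mouse. Genes that averaged 0.5 FPKM or more across the 4 mice were tested, which kept 12621 genes in all, 54 of the 67 replication-dependent genes and 10 of the 11 variant genes.

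The Lgr5-CREPTWT cells came from Lgr5-GFP-CreERT2 mice and the Lgr5-CREPTKO cells from Lgr5-GFP; CREPT fl/fl mice, all labelled C57BL/6. Mice of both genotypes were injected with tamoxifen, 1 mg a day over 5 days, and the brightest GFP cells were sorted on day 7. Mice were 6 to 8 weeks old and of both sexes in general, and the age and sex of each mouse sequenced are not given. Cre and GFP are expressed from Lgr5, an allele known to be active in only part of the crypts, so the sort is limited to cells that carry GFP. The targeted gene, Rprd1b, which encodes CREPT, was at 17.7 and 18.1 FPKM in the Lgr5-CREPTWT mice and at 6.65 and 7.36 FPKM in the Lgr5-CREPTKO mice. Both Lgr5-CREPTKO mice were below both Lgr5-CREPTWT mice, with a log2 difference of -1.29 and a limma adjusted p of 0.0280. Transcripts that lack the floxed exon can still add to this value. The stem cell gene Olfm4 was at 5077 and 4932 FPKM in the Lgr5-CREPTWT mice and at 5351 and 5181 FPKM in the Lgr5-CREPTKO mice, so this marker of crypt base stem cells was abundant in all 4 libraries. Of 9 stromal and endothelial genes, 8 were under the filter. All 9 summed to 0.73 and 0.68 FPKM in the Lgr5-CREPTWT mice and to 1.46 and 1.02 FPKM in the Lgr5-CREPTKO mice. This low sum was thus higher in both Lgr5-CREPTKO mice, and it was led by Pdgfrb, the gene that passed the filter.

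Replication-dependent histone genes supply the core histones H2A, H2B, H3 and H4 and the linker histone H1 while DNA is copied. They lie in clusters, most have no introns, and their mRNAs typically end in a conserved stem-loop, bound by the protein Slbp, in place of a poly(A) tail. Most variant histone genes lie outside the clusters and give polyadenylated mRNAs outside S phase too, with products such as H3.3, H2A.Z and macroH2A that take the place of a core histone at particular chromatin. Crypt base stem cells divide throughout life, so both classes are expected in them.

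The stem-loop is shown first because it separates the classes and sets where the mRNA ends. It was searched for after the stop codon of GENCODE M21 transcripts as 16 bases that begin with GG and end with CC, with 6 paired bases on each side of a loop of 4 bases of the form TNTN. It was found in 45 of the 67 replication-dependent genes and in 1 of the 11 variant genes, H2afx, and in the 100 bases after the stop codon it was found in 14 of 44261 transcripts (0.0316%) of the protein-coding genes outside the 78, of which 2 are of Hist2h3c1 and 1 of H2bfm, histone genes as well. The form of Hist3h2a was the most common, shared by 25 genes. The lines below give the 16 bases in capitals with up to 5 bases on either side.
Hist1h2ap: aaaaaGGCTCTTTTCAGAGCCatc
Hist1h1c: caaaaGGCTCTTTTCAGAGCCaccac
Hist3h2a: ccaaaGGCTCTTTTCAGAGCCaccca
Hist1h3d: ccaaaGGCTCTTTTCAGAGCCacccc
Hist1h3e: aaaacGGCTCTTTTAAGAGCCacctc
Hist1h4i: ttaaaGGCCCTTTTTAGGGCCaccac
Hist1h4j: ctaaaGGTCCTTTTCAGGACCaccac
H2afx: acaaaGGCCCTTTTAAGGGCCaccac
The letters differ between families mainly in the stem: 7 H4 genes share the form with CCC and GGG in the stem and a TTTC loop, while 25 genes, none of them of the H4 family, have that of Hist3h2a. Of the 22 replication-dependent genes without a match, 14 have fewer than 30 annotated bases after the stop codon and 2 are pseudogenes, so the letters could not be seen there. The other 6 include the abundant Hist1h2bc, with 742 bases after its stop codon, and Hist2h2be.

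The annotated ends of the transcripts varied. The transcript of Hist1h2ap ends 3 bases after the stem-loop, that of Hist3h2a runs on for 1643 bases and that of Hist1h1c for 840 bases. The letters AATAAA, the usual polyadenylation signal, were in the last 40 bases of a transcript of 14 of the 67 replication-dependent genes (20.9%) and of 8 of the 11 variant genes (72.7%). They were there in 48.1% of 47721 other protein-coding transcripts. The histone shares count a gene if any of its transcripts holds the letters, so they are not in the same unit as the last share. Of the 14 genes, 11 hold the stem-loop as well, among them Hist3h2a, Hist1h1c and Hist1h4j. Whether poly(A) RNA was selected for these libraries is not given in the sources used here. A selection of that kind would lower the FPKM of mRNAs that end at the stem-loop, so levels were compared between mice, and only with that limit between genes.

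By summed FPKM the histone variants were the higher class, with the limit given above for mRNAs that end at the stem-loop. Their summed level was 1820 and 1830 FPKM in the Lgr5-CREPTWT mice and 1652 and 1526 FPKM in the Lgr5-CREPTKO mice, while the 67 replication-dependent genes summed to 484.8 and 495.7 FPKM and to 509.2 and 580.5 FPKM. The summed variant level was thus lower in both Lgr5-CREPTKO mice, and the summed replication-dependent level was higher in both, with the wider gap between the mice in Lgr5-CREPTKO. All genes together had 495758 and 499327 FPKM in the Lgr5-CREPTWT mice and 468830 and 473662 FPKM in the Lgr5-CREPTKO mice, and the number of reads is not given. As a share of these totals, variants made up 0.367% in each Lgr5-CREPTWT mouse and 0.352% and 0.322% in the Lgr5-CREPTKO mice. Replication-dependent genes made up 0.0978% and 0.0993% against 0.109% and 0.123%. Hist1h2ap alone made up 51.7% of the summed replication-dependent level, and without it the sum was 237.9 and 234.9 FPKM in the Lgr5-CREPTWT mice and 248.0 and 279.5 FPKM in the Lgr5-CREPTKO mice.

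Genes were called with limma's moderated test on log2(FPKM + 0.5), where the adjusted p was below 0.05 and the log2 fold change was beyond 1 in either direction, and also by the adjusted p alone. With 2 mice in each genotype the smallest p of an exact permutation test is 0.333, so the calls rest on the spread that limma shares across genes. Log2 fold changes are Lgr5-CREPTKO minus Lgr5-CREPTWT on that scale, which understates changes at low FPKM. Over all 12621 genes tested, 128 (1.01%) were called lower and 16 (0.127%) higher, and at an adjusted p below 0.05 alone 337 (2.67%) were lower and 52 (0.412%) higher. Of the 54 replication-dependent genes tested, 1 was called lower, Hist1h3d, and 0 higher; at an adjusted p below 0.05 alone 2 were lower, Hist1h3d and Hist3h2a, and 0 higher. Of the 10 variant genes tested, 0 were called by either rule in limma's test, in either direction. At an unadjusted p below 0.05, 4 replication-dependent genes were lower and 6 higher and 3 variant genes were lower and 0 higher, where 15.2% of all genes tested were lower and 9.27% higher.

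**Figure D1:**
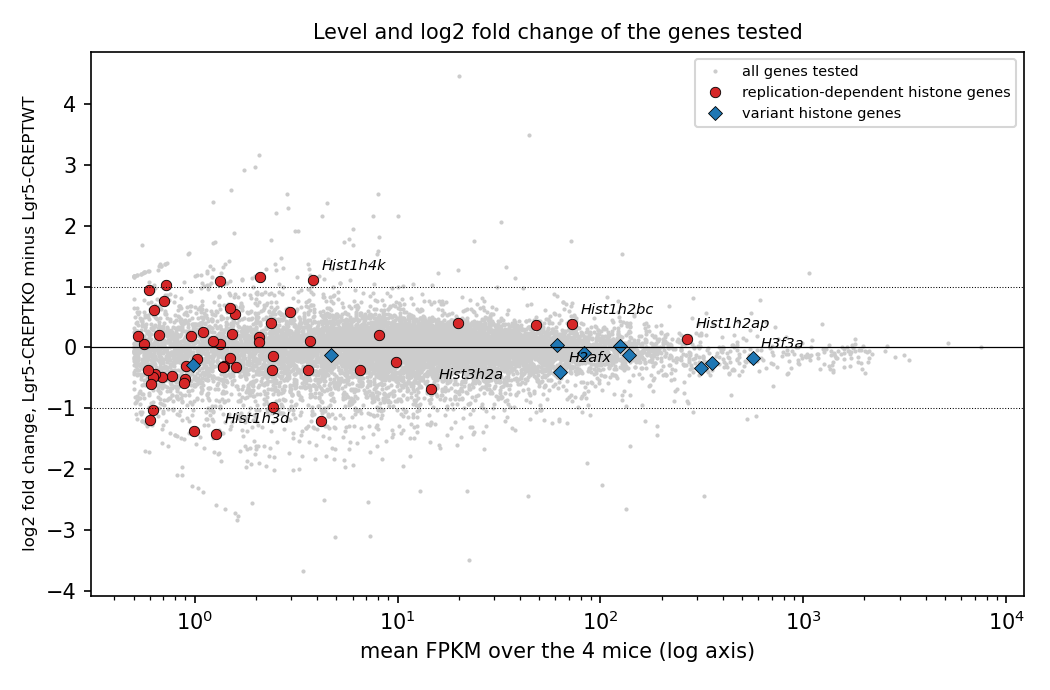
Mean FPKM over the 4 mice on a log axis (x) against the log2 fold change, Lgr5-CREPTKO minus Lgr5-CREPTWT (y), for the 12621 genes tested, with 54 replication-dependent genes as red circles, 10 variant genes as blue diamonds, all other genes in grey and dotted lines at log2 fold changes of -1 and 1. The variant genes lie within 0.41 of zero, between -0.41 and 0.05, and the replication-dependent genes spread from -1.42 to 1.16, with the widest spread at low FPKM.

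Hist3h2a, an H2A gene, was at 17.3 and 18.8 FPKM in the Lgr5-CREPTWT mice and at 11.3 and 10.8 FPKM in the Lgr5-CREPTKO mice. Both Lgr5-CREPTKO values were below both Lgr5-CREPTWT values, with a gap wider than the difference within either genotype. The log2 fold change was -0.69 (standard error, SE, 0.0896, limma adjusted p = 0.0376), short of the fold threshold. The gene lies at chr11:58954685-58956830 on the plus strand of GRCm38. There 31.5% of the 50-base words of its transcript also belong to Trim17, a gene annotated from the same start, and Trim17 was at 0.06 and 0.09 FPKM in the Lgr5-CREPTWT mice and at 0.19 and 0.33 FPKM in the Lgr5-CREPTKO mice. Hist3h2ba, an H2B gene of the same small cluster, was at 0.66 and 1.73 FPKM and at 0.63 and 0.51 FPKM. Its log2 fold change was -0.59, with an adjusted p of 0.389 in limma's test. The value was -0.12 without Lgr5-CREPTWT mouse 2 and -1.06 without Lgr5-CREPTWT mouse 1.

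Hist1h3d, an H3 gene of the second Hist1 cluster, was at 2.23 and 1.93 FPKM in the Lgr5-CREPTWT mice and at 0.43 and 0.50 FPKM in the Lgr5-CREPTKO mice. The genotypes did not overlap, and the mice of each genotype differed by little. Its log2 fold change of -1.42 (SE 0.202, limma adjusted p = 0.0423) passed both rules. The transcript, at chr13:23575763-23577011 on the plus strand, is annotated with 1249 bases, 752 of them past the stem-loop, and shares 24.8% of its 50-base words with other genes. The calls of Hist1h3d and Hist3h2a are both lost when any of the 4 mice is left out, with adjusted p between 0.161 and 0.305 and between 0.187 and 0.305, as are all other calls in the table. Under the replicate block, in which mice of the same number are paired, their adjusted p was 0.0645 and 0.0579. Both were also above 0.05 with no filter and with no intensity trend, and that of Hist1h3d with a mean of at least 1 FPKM, so that Hist1h3d was below 0.05 in 4 of 12 alternatives and Hist3h2a in 5.

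The promoters of these genes are given because they lie where replication-dependent genes carry shared letters. RefSeq on GRCm38.p6 lists a promoter for 59 of the 67 replication-dependent genes and 9 of the 11 variant genes, and the 250 bases before the start were searched on both strands. CCAAT was in 49 of the 59 replication-dependent genes (83.1%) against 33.8% of all 32851 promoters listed, TATAAA in 28 (47.5%) against 12.4%, and the octamer ATTTGCAT in 13 against 1.60%. CCAAT was in all H1, H2A and H2B genes with a promoter listed, in 8 of 9 H3 genes and in 3 of 12 H4 genes. The 13 genes with the octamer were 7 H2A and 6 H2B genes. Some H2A and H2B genes start close together on opposite strands, so their stretches overlap. The same octamer or CCAAT site can then count for both genes, and the counts are not of separate sites. Of the 9 variant genes, 5 held CCAAT, 1 held TATAAA and 1 held the octamer. No matches overlapped in the 69 promoters of the histone genes. The lines below give the 250 bases on the strand of the gene with all matches in capitals, for Hist3h2a at chr11:58954435-58954684 (plus strand), for Hist1h3d at chr13:23575513-23575762 (plus strand) and for Hist1h2ac at chr13:23683960-23684209 (minus strand), where the last covers most of the stretch between Hist1h2ac and Hist1h2bc and begins with 11 bases inside Hist1h2bc as GENCODE annotates it.
Hist3h2a promoter: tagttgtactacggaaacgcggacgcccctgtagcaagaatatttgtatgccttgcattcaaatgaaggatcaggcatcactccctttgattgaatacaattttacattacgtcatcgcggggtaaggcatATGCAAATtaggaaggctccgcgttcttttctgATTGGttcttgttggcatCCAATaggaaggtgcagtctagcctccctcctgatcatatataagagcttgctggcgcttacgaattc
Hist1h3d promoter: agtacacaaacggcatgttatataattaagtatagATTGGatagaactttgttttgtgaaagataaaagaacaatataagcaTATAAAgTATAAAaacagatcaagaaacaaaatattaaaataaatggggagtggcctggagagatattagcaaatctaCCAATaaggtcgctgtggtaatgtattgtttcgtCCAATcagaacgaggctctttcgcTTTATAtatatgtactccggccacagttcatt
Hist1h2ac promoter: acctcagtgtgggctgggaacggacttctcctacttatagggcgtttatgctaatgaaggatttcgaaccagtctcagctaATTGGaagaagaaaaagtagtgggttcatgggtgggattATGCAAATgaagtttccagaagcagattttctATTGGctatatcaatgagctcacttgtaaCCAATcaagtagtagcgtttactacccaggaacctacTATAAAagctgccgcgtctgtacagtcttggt
Hist3h2a has 2 CCAAT matches and 1 octamer, Hist1h3d has 3 CCAAT and 3 TATAAA matches, and Hist1h2ac has 3 CCAAT matches, 1 TATAAA and 1 octamer. A match describes the letters and does not show binding.

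Of the linker histones, Hist1h1c, which encodes H1.2, was at 15.7 and 18.6 FPKM in the Lgr5-CREPTWT mice and at 24 and 21.5 FPKM in the Lgr5-CREPTKO mice. Both Lgr5-CREPTKO mice were above both Lgr5-CREPTWT mice, and the log2 fold change of 0.40 (SE 0.116) had an adjusted p of 0.126 from limma's test. All 5 H1 genes tested had a log2 fold change above 0, as did 6016 of all 12621 genes tested. The median of the 5 was 0.26, and this median was -0.04 without Lgr5-CREPTKO mouse 2. It was 0.51 without Lgr5-CREPTKO mouse 1 and 0.54 without Lgr5-CREPTWT mouse 1. At an unadjusted p below 0.05, 1 of the 5 was higher, against 9.27% of all genes tested.

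Among H2A genes, Hist1h2ap was the most abundant replication-dependent gene, at 247.0 and 260.9 FPKM in the Lgr5-CREPTWT mice and at 261.2 and 301.0 FPKM in the Lgr5-CREPTKO mice. The genotypes did not overlap but nearly met, and the log2 fold change was 0.14 (SE 0.0944, limma adjusted p = 0.410). Over the 12 alternatives this value was between 0.0414 and 0.27. Hist1h2ao was at 41.9 and 41.8 FPKM and at 55.9 and 52.7 FPKM, with log2 fold change 0.37 (adjusted p = 0.0638). Reads of these genes are hard to assign, since 93.1% of the 50-base words of Hist1h2ap occur in Hist1h2ao as well. Hist1h2ag differed between the Lgr5-CREPTKO mice, with 5.10 and 6.49 FPKM in the Lgr5-CREPTWT mice and 1.06 and 4.17 FPKM in the Lgr5-CREPTKO mice (log2 fold change -1.21, adjusted p = 0.239), and the value was -0.42 without Lgr5-CREPTKO mouse 1. Hist1h2ab was at 0.52 FPKM and listed at 0 in the Lgr5-CREPTWT mice and at 0.53 and 1.33 FPKM in the Lgr5-CREPTKO mice. Over the 15 H2A genes tested the median log2 fold change was -0.37, and it was 0.25 without Lgr5-CREPTKO mouse 1 and 0.10 without Lgr5-CREPTWT mouse 1. It was -0.58 without Lgr5-CREPTKO mouse 2 and -0.59 without Lgr5-CREPTWT mouse 2.

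Among H2B genes, Hist1h2bc was the most abundant, at 61.9 and 64.3 FPKM in the Lgr5-CREPTWT mice and at 83.4 and 80.7 FPKM in the Lgr5-CREPTKO mice. Both Lgr5-CREPTKO mice were above both Lgr5-CREPTWT mice, by more than the mice of either genotype differed. The log2 fold change was 0.38 (SE 0.0677, limma adjusted p = 0.0603), and the adjusted p was 0.0484 when each library was scaled to the same total. Hist1h2ac, the H2A gene that starts 250 bases away on the other strand, was at 2.81 and 1.76 FPKM and at 3 and 4.25 FPKM, with log2 fold change 0.58 and an adjusted p of 0.253, and with each mouse left out it was between 0.30 and 0.85. Hist2h2bb was at 1.05 and 0.35 FPKM in the Lgr5-CREPTWT mice and at 1.52 and 2.43 FPKM in the Lgr5-CREPTKO mice (log2 fold change 1.08, adjusted p = 0.166), and the value was 0.65 without Lgr5-CREPTWT mouse 2. The 14 H2B genes tested had a median of -0.25 in log2 fold change, which was 0.02 without Lgr5-CREPTKO mouse 1 and -0.42 without Lgr5-CREPTKO mouse 2. Hist1h2bq and Hist1h2br had the same values in all 4 mice, with 97.3% of the words of Hist1h2bq shared with Hist1h2br, so they are not independent.

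H3 genes were all at low levels. Hist2h3c2, which had the highest mean only through Lgr5-CREPTKO mouse 2 and was below Hist1h3a in the other 3 mice, was at 1.19 and 0.70 FPKM in the Lgr5-CREPTWT mice and at 1.27 and 5.20 FPKM in the Lgr5-CREPTKO mice. Its log2 fold change of 1.16 (SE 0.580, limma adjusted p = 0.295) came from Lgr5-CREPTKO mouse 2. It was 0.31 without that mouse, and its highest over the 12 alternatives was 2.00. Hist1h3h was at 0.71 and 1.36 FPKM in the Lgr5-CREPTWT mice and at 0 and 0.35 FPKM in the Lgr5-CREPTKO mice, and Hist2h3b at 1.29 and 0.69 FPKM and at 0.51 and 0 FPKM. Their log2 fold changes of -1.20 and -1.04 had adjusted p of 0.156 and 0.234. Hist1h3b, listed at 0 in Lgr5-CREPTWT mouse 1 and at 0.69 FPKM in mouse 2, was at 1.37 and 0.82 FPKM in the Lgr5-CREPTKO mice (log2 fold change 1.03, adjusted p = 0.271). With each mouse left out these values were between 0.40 and 1.65 for Hist1h3b, between -1.59 and -0.82 for Hist1h3h and between -1.55 and -0.53 for Hist2h3b. H3 genes thus held both the lowest and the highest log2 fold change among the 54 genes, and only that of Hist1h3d passed the test. The median of the 10 H3 genes tested was -0.11, and it was 0.36 without Lgr5-CREPTKO mouse 1 and -0.35 without Lgr5-CREPTKO mouse 2.

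Of the H4 genes, Hist1h4i was the most abundant, at 8.83 and 12.6 FPKM in the Lgr5-CREPTWT mice and at 9.88 and 8.02 FPKM in the Lgr5-CREPTKO mice. The genotypes overlapped, with a log2 fold change of -0.23 and an adjusted p of 0.521 in limma's test. Hist1h4k was at 2.41 and 2.06 FPKM in the Lgr5-CREPTWT mice and at 4.36 and 6.54 FPKM in the Lgr5-CREPTKO mice, above both Lgr5-CREPTWT values in each. Its log2 fold change was 1.1 (SE 0.217, limma adjusted p = 0.0680), and 71.1% of its 50-base words occur in Hist1h4a. Hist1h4j was at 1.35 and 1.83 FPKM in the Lgr5-CREPTWT mice and at 0.77 and 0 FPKM in the Lgr5-CREPTKO mice (log2 fold change -1.38, adjusted p = 0.174), and the value was -0.71 without Lgr5-CREPTKO mouse 2 and -2.05 without Lgr5-CREPTKO mouse 1. With a pseudocount of 0.1 the log2 fold changes of genes near 0 FPKM were larger, -2.50 for Hist1h4j, -2.36 for Hist1h3h, -2.09 for Hist2h3b, 2.05 for Hist1h3b and 1.93 for Hist1h2ab. The 10 H4 genes tested had a median of 0.10, and it was -0.23 without Lgr5-CREPTKO mouse 2 and -0.07 without Lgr5-CREPTWT mouse 2. It was 0.51 without Lgr5-CREPTKO mouse 1 and 0.23 without Lgr5-CREPTWT mouse 1.

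**Figure D2:**
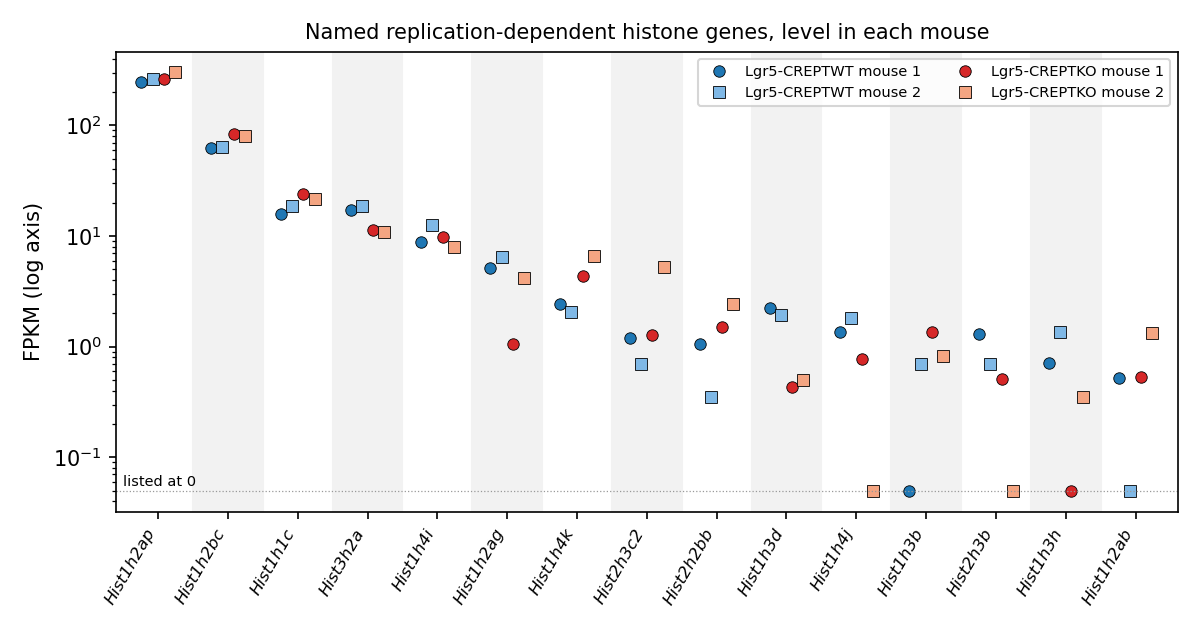
FPKM on a log axis (y) of 15 named replication-dependent genes (x) in each of the 4 mice, with Lgr5-CREPTWT in blue and Lgr5-CREPTKO in red, mouse 1 as circles and mouse 2 as squares, and values listed at 0 drawn on the dotted line. Most of these genes were picked by their log2 fold change, and 6 have both red points below both blue points, 8 have both above and Hist1h4i overlaps, against 31.0% below and 25.6% above over all genes tested.

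Taken over the class, the replication-dependent genes had no common direction. Of the 54 genes tested, 27 had a negative and 27 a positive log2 fold change, and the median of -0.04, against -0.01 over all genes tested, was 0.05 with equal library totals and 0.04 after quantile normalization. Both Lgr5-CREPTKO values were below both Lgr5-CREPTWT values in 12 genes and above in 13, where 31.0% of all genes tested were below and 25.6% above. The median size of the log2 fold change, 0.37, was larger than the 0.17 of all genes tested, and so was the median standard error, 0.342 against 0.116. Most of the class was low: 9 of the 54 genes had a mean of at least 4 FPKM and 20 a mean under 1 FPKM. Under 4 FPKM the median size was 0.40, against 0.26 for all genes tested at that level, with median standard errors of 0.373 and 0.229. For the 9 genes at 4 FPKM or more it was 0.37, against 0.16 for all genes at that level, with median standard errors of 0.116 and 0.101.

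The low genes differed between the mice of a genotype. Among the 45 genes tested with a mean under 4 FPKM, a boundary chosen after the values were seen, 38 (84.4%) were higher in Lgr5-CREPTKO mouse 2 than in mouse 1, against 56.1% of all genes tested under that level, and 16 (35.6%) were higher in Lgr5-CREPTWT mouse 2 than in mouse 1, against 47.8%. Many of these genes share sequence, and Hist1h2bq and Hist1h2br had the same values, so the counts are not of independent genes. All 58 replication-dependent genes under 4 FPKM summed to 72.6 and 57.1 FPKM in the Lgr5-CREPTWT mice and to 48.7 and 86.5 FPKM in the Lgr5-CREPTKO mice, so the Lgr5-CREPTKO mice were the lowest and the highest of the 4. The median log2 fold change of the 54 genes tested was 0.30 without Lgr5-CREPTKO mouse 1 and -0.25 without Lgr5-CREPTKO mouse 2. The 9 genes at or above 4 FPKM summed to 412.2 and 438.6 FPKM in the Lgr5-CREPTWT mice and to 460.5 and 494.0 FPKM in the Lgr5-CREPTKO mice. Of these, 3 were higher in Lgr5-CREPTKO mouse 2 than in mouse 1, against 53.4% of all genes tested. In Lgr5-CREPTWT 8 were higher in mouse 2 than in mouse 1, against 49.6% of all genes tested.

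Markers of other cell types differed between the same Lgr5-CREPTKO mice. The 10 Paneth cell genes summed to 1459 and 1072 FPKM in the Lgr5-CREPTWT mice and to 862.6 and 2670.0 FPKM in the Lgr5-CREPTKO mice, led by the defensin gene Defa24 at 591.8, 406.4, 288.8 and 1081 FPKM in the same order. The 9 immune genes, 7 of them tested, summed to 22.8 and 33.9 FPKM and to 8.70 and 49.8 FPKM, led by the granzyme gene Gzma at 10.3, 20.98, 2.09 and 35.1 FPKM. The sums of both lists were thus lowest in Lgr5-CREPTKO mouse 1 and highest in Lgr5-CREPTKO mouse 2, as that of the low replication-dependent genes was. Gzma made up 59.6% of the immune sum, and 2 of the 7 immune genes tested were lower in both Lgr5-CREPTKO mice instead, against 31.0% of all genes tested. The 10 enterocyte genes summed to 590.2 and 738.2 FPKM and to 465.2 and 765.1 FPKM, led by Vil1, with the same order in the Lgr5-CREPTKO mice. Vil1 itself was at 170.6 and 182.1 FPKM and at 87.1 and 118.8 FPKM, lower in both Lgr5-CREPTKO mice. In the other direction 1 of the 10 genes was higher without overlap, against 25.6% of all genes tested. In limma's test 0 genes of these lists were called, and at an unadjusted p below 0.05 there were 0 of the Paneth list, 1 lower of the immune list and 1 lower of the enterocyte list, where 15.2% of all genes were lower. The part of these cell types in the histone values was not tested, and in bulk RNA fewer cells of a type and less RNA per cell cannot be told apart.

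**Figure D3:**
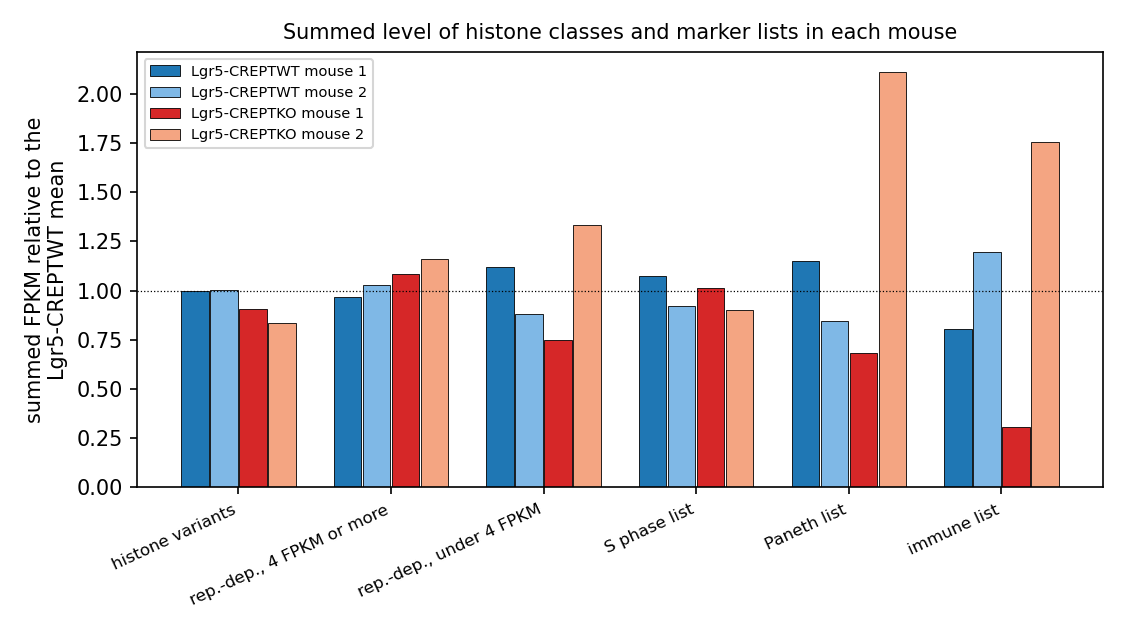
Summed FPKM of 3 histone sets and 3 gene lists (x) in each of the 4 mice, as bars relative to the mean of the Lgr5-CREPTWT mice, which is the dotted line at 1 (y). Histone variants are lower in both Lgr5-CREPTKO mice, and the low replication-dependent genes, the Paneth list and the immune list are lowest in Lgr5-CREPTKO mouse 1 and highest in Lgr5-CREPTKO mouse 2.

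The enteroendocrine, goblet and tuft lists were each lower in both Lgr5-CREPTKO mice. Of 13 enteroendocrine genes tested, 6 were called lower, against 1.01% of all genes tested, the median log2 fold change was -1.56, and the list of 14 summed to 241.5 and 355.7 FPKM in the Lgr5-CREPTWT mice and to 78.0 and 89.3 FPKM in the Lgr5-CREPTKO mice, led by Chgb, which encodes chromogranin B. Of 9 goblet cell genes 1 was called lower (median -0.94, -0.59 without Lgr5-CREPTWT mouse 2 and -1.48 without Lgr5-CREPTWT mouse 1), with sums of 1478 and 2467 FPKM against 814.0 and 943.9 FPKM, led by Tff3. Of 8 tuft cell genes tested none was called in limma's test, 4 were lower at an unadjusted p below 0.05 (15.2% over all genes), and the sums were 26.9 and 57.4 FPKM against 23.2 and 8.34 FPKM, led by Trpm5. All 10 crypt base stem cell genes had a positive log2 fold change, as did 6016 of all 12621 genes tested. The median of the 10 was 0.22, and 0 were called, with 5 higher at an unadjusted p below 0.05 (9.27% over all genes). The part of these cells in the histone levels was not tested.

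Of the histone variants, H3f3a and H3f3b encode H3.3, which is laid down outside replication. H3f3a was at 583.5 and 611.4 FPKM in the Lgr5-CREPTWT mice and at 569.6 and 488.2 FPKM in the Lgr5-CREPTKO mice, a log2 fold change of -0.18 (limma adjusted p = 0.339). H3f3b was at 366.8 and 333.2 FPKM and at 286.1 and 267.2 FPKM, with log2 fold change -0.34 (SE 0.0841, limma adjusted p = 0.0974). Over the 12 alternatives these values were between -0.29 and -0.0685 for H3f3a and between -0.41 and -0.17 for H3f3b. In both genes the Lgr5-CREPTKO mice were below the Lgr5-CREPTWT mice, narrowly so for H3f3a, and neither passed the test.

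H2afz and H2afv encode the forms of H2A.Z, and H2afx encodes H2A.X, which is phosphorylated at DNA breaks. H2afz was at 392.0 and 377.0 FPKM in the Lgr5-CREPTWT mice and at 327.0 and 319.4 FPKM in the Lgr5-CREPTKO mice, a log2 fold change of -0.25 (SE 0.0685, limma adjusted p = 0.116). Over the 12 alternatives this value was between -0.28 and -0.11. H2afx had the largest difference among the variants, with 67.1 and 77.1 FPKM against 56.7 and 51.6 FPKM, with log2 fold change -0.41 (SE 0.0996, limma adjusted p = 0.0951). Neither gene overlapped between the genotypes. H2afv, at 81.1 and 90.1 FPKM against 86.1 and 73.7 FPKM, did overlap, with log2 fold change -0.10 (limma adjusted p = 0.608). H2afx is also the variant with a stem-loop, shown above, and its transcript runs on for 822 bases after it.

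MacroH2A, H2A.J and the linker variants make up the rest of the variants tested. H2afy, which encodes macroH2A1, was at 121.1 and 126.9 FPKM in the Lgr5-CREPTWT mice and at 128.5 and 123.6 FPKM in the Lgr5-CREPTKO mice (log2 fold change 0.02, 95% interval from -0.15 to 0.20). H2afj was at 59.9 and 60.3 FPKM and at 57.8 and 66.7 FPKM (0.05, interval from -0.19 to 0.28). Both genes overlapped between the genotypes. The linker variant H1f0 was at 142.9 and 147.7 FPKM and at 135.4 and 129.4 FPKM (-0.13, adjusted p = 0.297), without overlap. H1fx was at 4.14 and 5.72 FPKM against 3.96 and 4.99 FPKM and H2afy2, which encodes macroH2A2, at 1.27 and 0.99 FPKM against 0.82 and 0.83 FPKM, with log2 fold changes of -0.12 and -0.29 (limma adjusted p = 0.762 and 0.452).

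Over the 10 variant genes tested, 8 had a negative log2 fold change, as did 6605 of all 12621 genes tested. The median of the 10 was -0.16, against -0.01 over all genes tested. With equal library totals the median was -0.08, against 0.06 over all genes, and 8 of the 10 were again negative. Both Lgr5-CREPTKO values were below both Lgr5-CREPTWT values in 6 genes and above in 0. Of all genes tested, 31.0% were below in this way and 25.6% above.

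**Figure D4:**
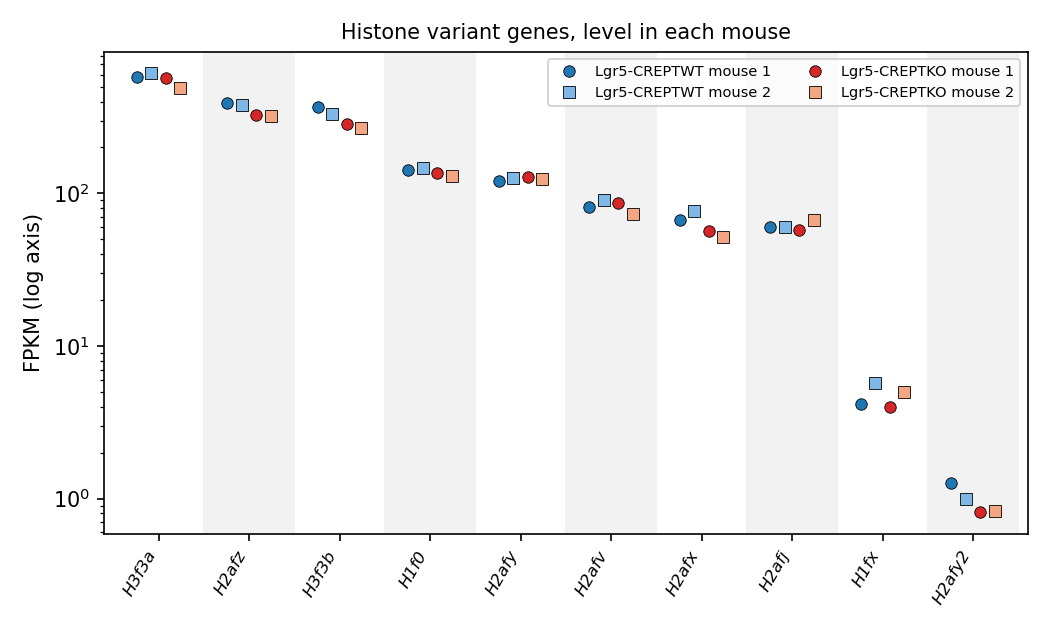
FPKM on a log axis (y) of the 10 histone variant genes tested (x) in each of the 4 mice, with Lgr5-CREPTWT in blue and Lgr5-CREPTKO in red, mouse 1 as circles and mouse 2 as squares. Both red points are below both blue points for H3f3a, H2afz, H3f3b, H1f0, H2afx and H2afy2, and the other 4 genes overlap.

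Genes under 0.5 FPKM on average were 13 of the 67 replication-dependent genes and H2afy3, a processed pseudogene. The means of the 13 were between 0.055 and 0.403 FPKM, 11 of them were listed at 0 in at least 1 mouse, and their highest value was 1.39 FPKM. Hist1h2bn was listed at 0 in both Lgr5-CREPTWT mice and was at 0.90 and 0.71 FPKM in the Lgr5-CREPTKO mice. Hist2h2aa2 was at 1.39 FPKM in Lgr5-CREPTKO mouse 2 and at 0 elsewhere, and all of its 50-base words (100%) also occur in other genes. Hist1h1t and Hist1h2aa, which encode testis histones, did not exceed 0.23 and 0.13 FPKM in any mouse. At these levels few reads stand behind a value. Among genes under 1 FPKM in all mice, taking the most common value as 1 read, 0.5 FPKM came to between 2.17 and 4.55 reads for transcripts of 420 to 520 bases, 5.56 reads for 520 to 700 bases and between 8.33 and 10 reads for 960 to 1100 bases. These are rough, since in the shortest class at most 3 values in a library were at the most common one.

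The genes lie in clusters that were described apart. On chromosome 13, 23 genes at chr13:21715763-22043676 had a median log2 fold change of -0.32 over the 19 tested, which was 0.02 without Lgr5-CREPTKO mouse 1 and 0.09 without Lgr5-CREPTWT mouse 1. Over the 25 tested of 30 genes at chr13:23531050-23934851 it was 0.10, and -0.22 without Lgr5-CREPTKO mouse 2 and -0.21 without Lgr5-CREPTWT mouse 2. The 9 Hist2 genes on chromosome 3 had a median of 0.20 over 7 tested, which was -0.00909 without Lgr5-CREPTKO mouse 2. H2A and H2B genes often start back to back, and of 13 such pairs within 1000 bases of each other 12 were of H2A with H2B. Both genes were tested in 9 pairs, and the log2 fold changes had the same sign in 6 and opposite signs in 3. The opposite pairs include Hist1h2bq with Hist1h2ao and Hist1h2br with Hist1h2ap. These are not independent, since Hist1h2bq and Hist1h2br had the same values and Hist1h2ao and Hist1h2ap share most of their words. Sequence is shared within the class: the median gene had 49.5% of its 50-base words in common with other genes, and 32 of 67 had more than 50%, against 6.14% and 0 of 11 for the variants. The division of reads among such genes rests on RSEM.

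By the annotated end, the 29 genes tested with a stem-loop and no AATAAA at the end had a median log2 fold change of 0.10. The 12 with AATAAA at the end of a transcript had one of -0.34. Of these 12, 9 were negative, against 6605 of all 12621 genes tested. The 9 include Hist1h2bq and Hist1h2br, which had the same values in all mice and are not independent. The 13 genes with neither had a median of -0.37, as low as that of the genes with AATAAA, with 7 negative and 6 positive. Most of these 13 are annotated with few or no bases after the stop codon. Their ends could not be seen, so they are not an end form of their own. The signs were the same with equal library totals (0.17, -0.31 and -0.32). The first median was -0.18 without Lgr5-CREPTKO mouse 2 and -0.09 without Lgr5-CREPTWT mouse 2, the second was between -0.62 and -0.04 with each mouse left out, and the last was 0.35 without Lgr5-CREPTWT mouse 1 and 0.36 without Lgr5-CREPTKO mouse 1. This grouping was chosen after the values were seen, and its differences were not tested.

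The factors that make and end histone mRNAs were compared in the same way. Of the 31 genes on a list of histone mRNA transcription and 3-prime processing factors, 30 were in the table and tested, and 0 passed an adjusted p below 0.05 in limma's test; the unadjusted p was below 0.05 for 3 lower and 2 higher genes, against 15.2% and 9.27% of all genes tested. The median log2 fold change was 0.00920, and it was -0.00845 without Lgr5-CREPTKO mouse 1. Slbp, which binds the stem-loop, was at 61.6 and 50.4 FPKM in the Lgr5-CREPTWT mice and at 51.0 and 48.1 FPKM in the Lgr5-CREPTKO mice (log2 fold change -0.17, adjusted p = 0.427). Npat, the coactivator that cyclin E-Cdk2 phosphorylates at histone loci, was at 6.20 and 5.75 FPKM and at 5.98 and 6.06 FPKM (0.01, adjusted p = 0.964). Both genes overlapped between the genotypes. Casp8ap2, which encodes FLASH, and Lsm10 and Lsm11, which encode the Lsm proteins of the U7 snRNP, had log2 fold changes of 0.04, -0.14 and 0.01 (limma adjusted p = 0.916, 0.729 and 0.980). The most abundant genes of the list were the Sm protein genes Snrpg, Snrpb and Snrpe, with log2 fold changes of -0.29, -0.01 and -0.50 (limma adjusted p = 0.138, 0.940 and 0.0642), and these proteins also serve splicing.

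S phase genes were examined because histone mRNA is made as DNA replicates. All 32 genes on the list were tested and 0 passed in limma's test; the unadjusted p was below 0.05 for 6 lower and 0 higher genes, where 15.2% of all genes tested were lower and 9.27% higher. The median log2 fold change of -0.08 was 0.06 without Lgr5-CREPTWT mouse 1, 0.00517 without Lgr5-CREPTKO mouse 2, -0.20 without Lgr5-CREPTWT mouse 2 and -0.15 without Lgr5-CREPTKO mouse 1, and it was -0.00760 with equal library totals. The list summed to 1447 and 1243 FPKM in the Lgr5-CREPTWT mice and to 1362 and 1213 FPKM in the Lgr5-CREPTKO mice. It was thus lower in mouse 2 of each genotype, and the low replication-dependent genes were also lower in Lgr5-CREPTWT mouse 2 but higher in Lgr5-CREPTKO mouse 2. Pcna, the replication clamp, was at 254.8 and 211.6 FPKM and at 229.8 and 192.8 FPKM (log2 fold change -0.14, adjusted p = 0.562), and Mcm6 and Mcm7 had log2 fold changes of 0.19 and 0.09 (limma adjusted p = 0.304 and 0.620). Ccne1 and Ccne2, the E cyclins, and Cdk2 had log2 fold changes of -0.14, -0.29 and -0.18 (limma adjusted p = 0.673, 0.477 and 0.352). Over the 12 alternatives the values were between -0.55 and -0.0285 for Ccne2 and between -0.30 and -0.0660 for Cdk2. Those of Pcna were between -0.28 and -0.00742, and those of Mcm6 between 0.0874 and 0.30. Of 15 proliferation markers 0 passed, the unadjusted p was below 0.05 for 2 lower and 0 higher genes (15.2% and 9.27% over all genes), and the median was -0.18 (-0.10 with equal library totals). Of the 15, 12 were negative, against 6605 of all 12621 genes tested. Without overlap 8 were lower (31.0% over all genes) and 2 higher (25.6%). Mki67 was at 0.24, Top2a at -0.02 and Ube2c at -0.43 (limma adjusted p = 0.256, 0.949 and 0.0996).

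Histone chaperones carry histones to DNA. Of 14 chaperones coupled to replication 0 passed in limma's test, the unadjusted p was below 0.05 for 1 lower and 0 higher genes (15.2% and 9.27% over all genes), and the median log2 fold change of -0.03 turned to 0.04 with equal library totals and to 0.01 after quantile normalization, and was 0.05 without Lgr5-CREPTWT mouse 1. Chaf1a and Chaf1b, subunits of CAF-1, had log2 fold changes of 0.01 and 0.03, and Asf1a and Asf1b had -0.33 and -0.23 (limma adjusted p = 0.0968 and 0.289). Asf1a was at 13.5 and 13.2 FPKM in the Lgr5-CREPTWT mice and at 10.5 and 10.5 FPKM in the Lgr5-CREPTKO mice, without overlap. Nasp, Rbbp7 and Mcm2, the most abundant of the list, had -0.05, -0.16 and 0.08 (adjusted p = 0.818, 0.320 and 0.680).

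Of 25 chaperones and partners of variant histones 0 passed in limma's test, the unadjusted p was below 0.05 for 4 lower and 5 higher genes (15.2% and 9.27% over all genes), and the median log2 fold change was 0.02, or -0.01 without Lgr5-CREPTKO mouse 1. Hira, which deposits H3.3, was at 25.5 and 23.1 FPKM in the Lgr5-CREPTWT mice and at 26.2 and 25.2 FPKM in the Lgr5-CREPTKO mice (log2 fold change 0.08, adjusted p = 0.612). Cenpa, the centromeric H3 variant whose symbol lies outside the patterns used for the 78 genes, was at 35.4 and 39.3 FPKM and at 22.3 and 30.5 FPKM (-0.51, adjusted p = 0.150). Its chaperone Hjurp was at 22.4 and 18.4 FPKM and at 15.2 and 15.9 FPKM (-0.38, adjusted p = 0.142). Over the 12 alternatives these values were between -0.73 and -0.28 for Cenpa and between -0.52 and -0.24 for Hjurp. The genotypes of Cenpa and Hjurp did not overlap, and those of Hira did. The most abundant genes, Npm1, Set and Ncl, had log2 fold changes of -0.07, 0.10 and -0.14 (limma adjusted p = 0.616, 0.420 and 0.391).

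**Figure D5:**
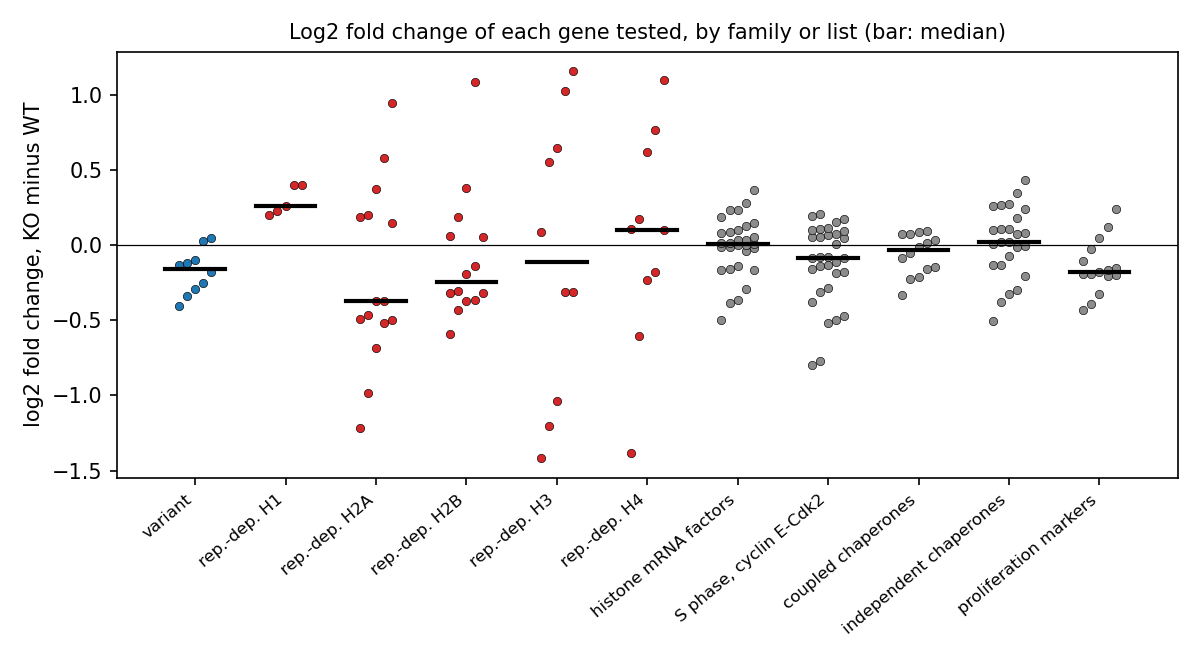
Log2 fold change, Lgr5-CREPTKO minus Lgr5-CREPTWT (y), of each gene tested in the variant class, the 5 replication-dependent families and the 5 gene lists (x), with the median of each as a black bar. The variant median lies at -0.16, those of the replication-dependent families between -0.37 for H2A and 0.26 for H1, and those of the lists between -0.18 and 0.02, and the points of the H2A, H2B, H3 and H4 families spread most.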

How the data were processed

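Lgr5-GFPhigh cells of 2 mice per genotype were measured by RNA-seq. The authors deposited FPKM values, rounded to 2 decimals. The submitters' notes name HISAT, Bowtie2 and RSEM on mm10, and the methods of the paper name GRCm38.p6 for crypts and whole intestines; versions are not given in the sources used here. Columns were assigned to mice by sample title. limma 3.58.1 in R 4.3.3 (lmFit, then eBayes with an intensity trend) was applied to log2(FPKM + 0.5), keeping genes averaging 0.5 FPKM or more, with Benjamini-Hochberg adjustment over all 12621; it was first run on simulated data. The paper used a count model, and the file used holds no counts. Members and lists were chosen with earlier results of these data known. Named by a rule, also written with those results known, are all variants tested; replication-dependent genes with adjusted p under 0.05, the most abundant of each family and the 5 most extreme log2 fold changes each way; the 3 most abundant genes of each pathway list with 17 set factors; the most abundant of each marker list; and Rprd1b. The immune list has 1 gene fewer than first set. Hist1h1t, Hist1h2aa, Hist1h2ac, Hist1h2ao, Hist1h2bn, Hist1h2bq, Hist1h2br, Hist1h3a, Hist1h3e, Hist2h2aa2, Hist2h2be, Hist2h3c1, Hist3h2ba, H2bfm and Trim17 were chosen after their values were seen, as was the 4 FPKM boundary. Promoters came from RefSeq (GRCm38.p6) and transcripts from GENCODE M21, read with Python 3.11.15; plots used matplotlib 3.10.9. Of the 78 members, 77 matched RefSeq and all matched GENCODE.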

Additional observations from a re-analysis of the deposited data

How the results depend on the processing

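The 128 genes called lower were 0 with no filter, 4 with no intensity trend and 0 to 0 with each mouse left out in turn (leave-one-out), and 337 by the adjusted p alone; the 16 called higher were 0, 0, 0 to 0 and 52, and 8 under the replicate block. The 1 replication-dependent gene called lower was 0 with no filter, with a mean of at least 1 FPKM, with no intensity trend, under the replicate block and in each leave-one-out, and 2 by the adjusted p alone. Leave-one-out leaves 1 mouse in a genotype, which is assumed to vary like the other genotype, and fewer samples give less power; no gene passed there. For the other settings the cause was not tested. Over the 12 alternatives the adjusted p of Hist1h3d was 0.0419 to 0.305 and that of Hist3h2a 0.0331 to 0.305.

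In leave-one-out the median log2 fold change was -0.25 to 0.30 for replication-dependent genes and -0.24 to -0.13 for variants, and the variant median was -0.0787 with equal totals and -0.0818 after quantile normalization. None of the following genes passed the test. Log2 fold changes that turned sign with equal totals and quantile normalization were those of Snrpb (0.0671, 0.0623), Top2a (0.0542, 0.0435), Nasp (0.0243, 0.00393) and Npm1 (0.00834, 0.0288). In leave-one-out the ranges that crossed 0 were -0.00976 to 0.0576 for H2afy, -0.21 to 0.00995 for H2afv, -0.0568 to 0.15 for H2afj, -0.33 to 0.0928 for H1fx, -0.48 to 0.0114 for Hist1h4i, -0.0453 to 0.0230 for Snrpb, -0.26 to 0.22 for Top2a, -0.18 to 0.0724 for Nasp, -0.0352 to 0.19 for Mcm2, -0.0211 to 0.21 for Mcm7, -0.0393 to 0.0610 for Npat, -0.17 to 0.24 for Casp8ap2, -0.39 to 0.11 for Lsm10, -0.0886 to 0.10 for Lsm11, -0.0732 to 0.10 for Chaf1a, -0.13 to 0.19 for Chaf1b, -0.35 to 0.0820 for Ccne1, -2.56 to 1.22 for Gzma and -0.76 to 1.14 for Defa24. Other ranges, over the 12 alternatives, kept their sign but were wide. They were -0.31 to -0.0235 for Slbp, -0.36 to -0.0939 for Asf1b, -0.24 to -0.0768 for Rbbp7 and -0.23 to -0.0444 for Ncl. They were 0.0588 to 0.19 for Set, 0.00861 to 0.16 for Hira, 0.14 to 0.34 for Mki67 and -0.17 to -0.0561 for H1f0. The cause was not tested.

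The replicate block pairs mice that share only a number in their labels; deviations of same-numbered mice had r = -0.03 across 12621 genes, which are not independent replicates. FPKM values carry no counts, so the depth behind a low value is unknown.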
